A study of Homo sapiens with 12 samples.

Results

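The genes described here are 10 members of the YAP/TAZ pathway: the coactivators YAP1 and WWTR1 (TAZ), the DNA-binding partners TEAD1 and TEAD4, the inhibitory kinase LATS2, the target genes CCN1 (CYR61), CCN2 (CTGF), ANKRD1 and AMOTL2, and the LIM-domain scaffold AJUBA. They were listed by symbol as well-known members and targets of the pathway, with earlier results of these data known, and all 10 were found by Ensembl identifier among the 61552 genes of the count tables and were among the 18646 genes with enough reads to test. Poly-A RNA came from RD cells, an established human line from an embryonal rhabdomyosarcoma, a childhood soft tissue tumour with features of unfinished muscle differentiation; the labels give the cells as fusion-negative (FN-RMS). The cells had received either scrambled siRNA (n = 3 libraries) or an siRNA against EHMT1, the histone H3 lysine 9 methyltransferase also called GLP (n = 3 libraries), with Lipofectamine RNAiMAX, and RNA was taken at 48 h. All libraries come from this 1 line, and no untransfected cells are among them. The SOX8 siRNA experiment of the same series was not analysed here.

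In the Hippo pathway, the kinases STK3 and STK4 (MST) activate LATS1 and LATS2 together with the adaptors SAV1 and MOB1. LATS kinases phosphorylate YAP and TAZ, which are then held in the cytoplasm or degraded. When LATS activity is low, as in spread or stretched cells, YAP and TAZ enter the nucleus, bind TEAD factors and switch on genes such as CCN1, CCN2 and ANKRD1. AMOTL2 and LATS2 are targets that in turn restrain YAP and TAZ, and AJUBA binds and inhibits LATS kinases. In skeletal muscle active YAP is known for keeping satellite cells and myoblasts proliferating, and YAP is known as an oncogene in embryonal rhabdomyosarcoma. Control of YAP and TAZ acts largely on the proteins, by phosphorylation and location, so transcript levels do not report their activity directly.

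TEAD factors recognise the DNA word GGAATG, read as CATTCC on the other strand. The 250 bases before the start of each gene were searched for both forms, in the RefSeq promoter table (GRCh38.p14). The table held 7 of the 10 genes, with 10 starts. CCN1, TEAD1 and TEAD4 were not matched. Of all 35116 promoter windows in the table, 11.9% held the word at least once on either strand, 0.94% at least 2 times and 0.0826% at least 3 times. CCN2 held it 3 times, beginning 169, 104 and 95 bases before the start, and ANKRD1 2 times, at 220 and 128 bases. AMOTL2 held CATTCC once at 1 of its 2 starts, at 69 bases. AJUBA held GGAATG once at 1 of 2 starts, at 59 bases, and YAP1 once, at 162 bases. The LATS2 window and both WWTR1 windows held neither form, which says only that these letters are not in those windows. The sequences of CCN2, ANKRD1 and AMOTL2 are shown because these are 3 textbook targets, each with the word. They were chosen with the results below known: CCN2 rose, AMOTL2 fell and ANKRD1 did not pass the test. The call of AMOTL2 was lost in fits that left out some single libraries. Capitals mark GGAATG or CATTCC, and each sequence runs 5′ to 3′ towards the start.
CCN2 promoter, chr6:131951373-131951622, minus strand: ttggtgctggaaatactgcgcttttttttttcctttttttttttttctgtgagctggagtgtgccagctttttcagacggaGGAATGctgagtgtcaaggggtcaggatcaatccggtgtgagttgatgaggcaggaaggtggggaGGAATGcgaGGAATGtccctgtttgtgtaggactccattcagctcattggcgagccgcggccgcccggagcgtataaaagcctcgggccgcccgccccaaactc
ANKRD1 promoter, chr10:90921088-90921337, minus strand: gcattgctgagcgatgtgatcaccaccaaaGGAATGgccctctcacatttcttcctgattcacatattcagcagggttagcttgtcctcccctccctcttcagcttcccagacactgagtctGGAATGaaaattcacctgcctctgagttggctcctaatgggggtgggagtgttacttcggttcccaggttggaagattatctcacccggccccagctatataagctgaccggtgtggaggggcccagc
AMOTL2 promoter, chr3:134374448-134374697, minus strand: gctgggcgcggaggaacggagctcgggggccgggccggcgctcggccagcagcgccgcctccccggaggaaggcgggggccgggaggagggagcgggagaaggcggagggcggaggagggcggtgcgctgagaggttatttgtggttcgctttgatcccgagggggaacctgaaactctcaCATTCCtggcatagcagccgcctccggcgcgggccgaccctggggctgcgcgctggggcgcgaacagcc

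The libraries held 40639655 to 47258481 gene counts. For a gene without a read, the upper limit was 0.0641 to 0.0751 CPM, equal to 3 counts; such limits cover counting error only. CPM are counts relative to the library total, scaled between libraries by the TMM method. EHMT1 checked the labels: it was at 139 ± 14.7 CPM (SD, n = 3) with scrambled siRNA and at 55.1 ± 2.26 CPM with EHMT1 siRNA, 39.6% of the control level (log2 fold change -1.34, SE 0.072, edgeR adjusted p = 9.13e-09; exact two-sided permutation p = 0.1, the smallest that 3 against 3 libraries allow). EHMT2 was at -0.21 (edgeR adjusted p = 0.0334) and SOX8 at -0.44 (edgeR adjusted p = 0.000305) on the log2 scale, and neither gene had overlapping groups. The call of EHMT2 was lost in each of the 3 fits without an EHMT1 siRNA library (edgeR adjusted p = 0.113 to 0.157). In these 3 fits 452 to 565 genes rose and 484 to 607 fell, against 1084 and 1220 with all libraries. The loss of a call in these fits, here and below, was therefore not particular to 1 gene. Among 11 fixed skeletal muscle markers, MYOD1 stood at 151.4, DES at 311.4, CHRNA1 at 638.1 and MYOG at 49.5 mean CPM with scrambled siRNA, and MYF5 was at 0 counts in every library. The 11 markers summed to 1354 to 1552 CPM with scrambled and to 1518 to 1591 CPM with EHMT1 siRNA, and PAX7 was the 1 marker that rose, a call lost without EHMT1 siRNA replicate 3. Summed markers of epithelium, endothelium, leukocytes and adipocytes stayed at or under 1.152 CPM each in every library, with KRT14 and ADIPOQ at 0 counts. Scrambled replicate 2 stood apart on the first principal component, at -36.4 against -16.0 and -9.16 for the other scrambled libraries, and it had the highest mitochondrial share of counts, 5.41% against 4.29% to 4.83%. The part of this library in the results below was measured by leaving it out. The scrambled libraries were also more spread as a group. Between pairs of them, the chi-square per degree of freedom of the counts was 8.05 to 18.7, against 2.80 to 3.12 between EHMT1 siRNA pairs. The value of 8.05 was that of scrambled replicates 1 and 3. On the second principal component scrambled replicate 1 lay at 31.3, replicate 3 at 12.7 and replicate 2 at -26.6.

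Of the 10 genes, 2 rose (CCN2 and LATS2), 1 fell (AMOTL2) and 7 did not pass the test at an edgeR adjusted p under 0.05. Of all genes tested, 12.4% passed, 5.81% rising and 6.54% falling. The median log2 fold change of the 10 was 0.07, beside 0.00 over all genes tested. For 4 of the 10 there was no overlap between the groups, which held for 30.9% of all genes tested. In CCN2, LATS2 and AJUBA the EHMT1 siRNA libraries lay above (15.4% of all genes), and in AMOTL2 they lay below (15.5% of all genes). No change among the 10 reached 1.5-fold; the largest was that of CCN2, at 1.30-fold. With so few genes these shares do not set the list apart from the rest of the transcriptome.

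**Figure D1:**
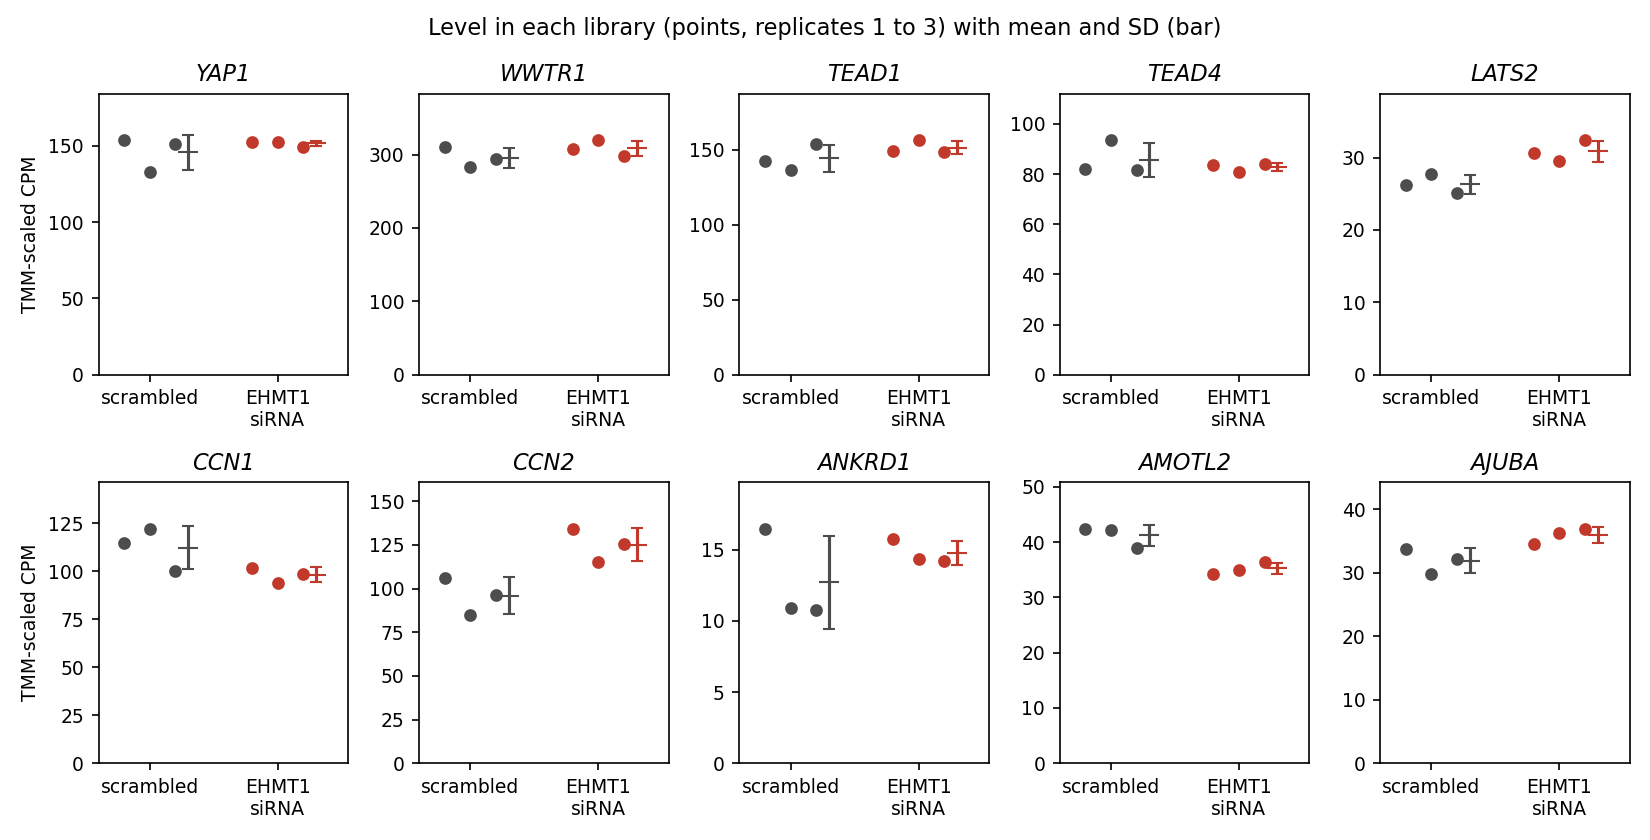
TMM-scaled CPM (vertical axes, from 0) of the 10 genes in the 3 scrambled (grey) and 3 EHMT1 siRNA (red) libraries, replicates 1 to 3 from left to right, with the mean and SD beside them. CCN2, LATS2 and AJUBA lie higher in every EHMT1 siRNA library than in every scrambled library, AMOTL2 lies lower in each, and the other 6 overlap.

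The first question was whether the coactivators themselves differed. YAP1, the coactivator after which the pathway is named, measured 153.6, 132.6 and 151.3 CPM with scrambled and 152.5, 152.7 and 149.4 CPM with EHMT1 siRNA, given here and below in the order of replicates 1 to 3. Scrambled replicate 2 was the low library, and the other 5 lay within 5 CPM of each other. The log2 fold change was 0.06 (95% interval -0.08 to 0.19; edgeR adjusted p = 0.636), an interval that covers a fold of 0.949 to 1.14. Without scrambled replicate 2 it was -0.01 (edgeR adjusted p = 0.886). WWTR1, which encodes TAZ, the paralogue of YAP, measured 309.7, 282.4 and 293.7 CPM with scrambled and 307.1, 319.3 and 298.4 CPM with EHMT1 siRNA. The groups overlapped, with a log2 fold change of 0.06 (95% interval -0.06 to 0.18; edgeR adjusted p = 0.543). Neither coactivator transcript differed beyond the spread of the libraries. In the unstranded column, which gave these values, the intervals leave room for changes of up to 1.14-fold. A gene on the opposite strand covers 9.98% of the YAP1 exons and another, WWTR1-AS1, 9.45% of the WWTR1 exons. The unstranded column held fewer reads of both genes over the 6 libraries than the second strand column, 37811 against 45197 for YAP1 and 76692 against 87570 for WWTR1. In that second column the log2 fold changes were 0.11 and 0.07, neither past the test (edgeR adjusted p = 0.31 and 0.476). The limit of 1.14-fold does not apply to that column.

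Levels of different genes are compared here only per length, as CPM per kb of annotated exon. On that scale WWTR1 stood at 35.1 ± 1.63 and YAP1 at 23.2 ± 1.82 CPM per kb with scrambled siRNA (SD, n = 3 each), so TAZ transcripts outnumbered YAP transcripts. The ratio of WWTR1 to YAP1 was 1.51, 1.59 and 1.45 in the scrambled libraries and 1.51, 1.56 and 1.495 in the EHMT1 siRNA libraries. It did not differ between the groups (1.52 ± 0.071 against 1.52 ± 0.037; exact two-sided permutation p = 1). In the second strand column the ratio was 1.48 ± 0.129 with scrambled and 1.43 ± 0.041 with EHMT1 siRNA, a difference that was not tested. The size of the ratio depends on the length taken for each gene: with the longest transcript in place of all exons it was 2.18 ± 0.10 with scrambled siRNA.

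The TEAD factors carry the DNA-binding domain that YAP and TAZ lack. TEAD1 measured 142.4, 136.7 and 153.9 CPM with scrambled and 149.5, 156.4 and 148.9 CPM with EHMT1 siRNA. Its groups overlapped (log2 fold change 0.07, 95% interval -0.05 to 0.20; edgeR adjusted p = 0.496). TEAD4, a TEAD factor known for its role in myoblasts, measured 81.9, 93.4 and 81.7 CPM with scrambled and 83.5, 80.8 and 84.1 CPM with EHMT1 siRNA. Here scrambled replicate 2 was the high library, the log2 fold change was -0.05 (95% interval -0.18 to 0.08; edgeR adjusted p = 0.683), and without that library it was 0.01 (edgeR adjusted p = 0.906).

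All 4 TEAD genes were transcribed in these cells. Per length, TEAD4 led at 37.7 ± 2.96 CPM per kb with scrambled siRNA, followed by TEAD2 at 28.4 ± 2.54, TEAD3 at 14.9 ± 1.40 and TEAD1 at 14.04 ± 0.853 (SD, n = 3 each). The ranges of TEAD3 and TEAD1 overlapped, so these neighbours did not differ beyond their spread. TEAD4 made up 39.6% ± 1.01 of the summed per-length TEAD level with scrambled and 40.5% ± 0.835 with EHMT1 siRNA. TEAD2 made up 29.9% ± 1.23 and 27.4% ± 0.236, the 1 TEAD gene whose shares did not overlap between the groups. The exact two-sided permutation p for TEAD2 was 0.1, the smallest possible, and 0.4 when adjusted over the 4 genes. In the fit over all genes TEAD2 fell from 84.7 ± 7.58 to 73.4 ± 1.19 CPM (log2 fold change -0.21, edgeR adjusted p = 0.0468). That call was lost without scrambled replicate 2, without any 1 EHMT1 siRNA library, with upper-quartile size factors and with limma-voom. Fits without an EHMT1 siRNA library also called fewer genes over the whole transcriptome.

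**Figure D2:**
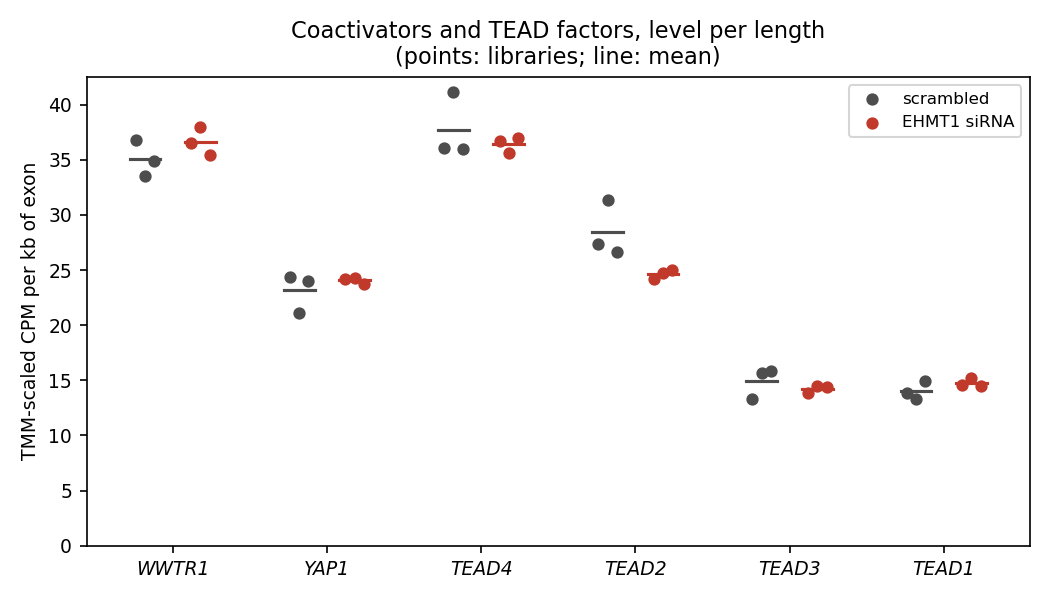
TMM-scaled CPM per kb of exon (vertical axis, from 0) for the 2 coactivators and the 4 TEAD factors; points are libraries, lines are group means, grey is scrambled and red EHMT1 siRNA. WWTR1 lies above YAP1 in every library, TEAD4 and TEAD2 lie above TEAD3 and TEAD1, and TEAD2 is the 1 gene of the 6 whose groups do not overlap.

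The secreted matricellular proteins CCN1 and CCN2 are the most used readouts of YAP and TAZ, and their transcripts had opposite signs. CCN2, which encodes connective tissue growth factor, measured 106.3, 84.9 and 96.5 CPM with scrambled and 134.2, 115.4 and 125.8 CPM with EHMT1 siRNA. Every EHMT1 siRNA library lay above every scrambled library. CCN2 rose, with a log2 fold change of 0.38 (SE 0.076, 95% interval 0.22 to 0.54; edgeR adjusted p = 0.00332), and the call was kept with any 1 library left out (0.30 to 0.46, edgeR adjusted p = 0.00065 to 0.0288). The lowest of these values was that without scrambled replicate 2. An unnamed gene on the opposite strand covers 8.34% of the CCN2 exons, and the unstranded column held fewer CCN2 reads over the 6 libraries than the second strand column, 28070 against 31435. In the second column the log2 fold change was 0.28 (edgeR adjusted p = 0.0168).

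CCN1 measured 114.8, 122.1 and 99.97 CPM with scrambled and 101.8, 94.0 and 98.7 CPM with EHMT1 siRNA. The groups overlapped, since scrambled replicate 3 lay below EHMT1 siRNA replicate 1. The log2 fold change was -0.19 (SE 0.069, 95% interval -0.34 to -0.05; unadjusted p = 0.0124), and the edgeR adjusted p of 0.078 missed the threshold. It passed without a filter on low counts (-0.19, edgeR adjusted p = 0.044) and without scrambled replicate 3 (-0.27, edgeR adjusted p = 0.013). Without scrambled replicate 2, which was the highest library for CCN1 and the lowest for CCN2, it was -0.14.

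Because both genes are read in the same library, the ratio of CCN2 to CCN1 counts needs no scaling between libraries; it was chosen after the values were seen and is a description with no test. It was 0.926, 0.695 and 0.965 with scrambled and 1.32, 1.23 and 1.27 with EHMT1 siRNA. The mean log2 ratio was higher by 0.58 with EHMT1 siRNA. The ratio compares the groups and not the levels of the 2 genes, since counts depend on length. In the second strand column the ratio was 1.10 ± 0.177 with scrambled and 1.53 ± 0.055 with EHMT1 siRNA, a difference of 0.49 on the log2 scale.

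ANKRD1, a muscle ankyrin repeat protein that is also induced by stretch, had the fewest reads of the 10, with 435 to 771 counts per library. It measured 16.5, 10.9 and 10.8 CPM with scrambled and 15.8, 14.4 and 14.2 CPM with EHMT1 siRNA. Scrambled replicate 1 was the highest of all 6 libraries, and the other scrambled libraries were the lowest. The log2 fold change was 0.21 with a wide interval (95% interval -0.06 to 0.49; edgeR adjusted p = 0.332). Without scrambled replicate 1 it was 0.45 and passed the test (edgeR adjusted p = 0.00479), so this 1 library decided the call. The spread of ANKRD1 within the scrambled group, a coefficient of variation of 25.6%, was the largest among the 10 genes.

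AMOTL2, an angiomotin family scaffold that binds YAP and TAZ at junctions, measured 42.4, 42.3 and 39.0 CPM with scrambled and 34.3, 35.0 and 36.4 CPM with EHMT1 siRNA. The groups did not overlap, and AMOTL2 fell, with a log2 fold change of -0.23 (SE 0.064, 95% interval -0.36 to -0.09; edgeR adjusted p = 0.0271). LATS2, the kinase that phosphorylates YAP and TAZ, measured 26.1, 27.7 and 25.1 CPM with scrambled and 30.6, 29.6 and 32.4 CPM with EHMT1 siRNA. Here too the groups did not overlap, but LATS2 rose (log2 fold change 0.23, SE 0.069, 95% interval 0.08 to 0.37; edgeR adjusted p = 0.0382). Both genes encode inhibitors of the pathway that are themselves targets of it, and they moved in opposite directions. Both calls lay close to the threshold. AMOTL2 no longer passed in 4 of the 6 fits that left out a library, namely scrambled replicate 1 or any EHMT1 siRNA replicate (edgeR adjusted p = 0.0539 to 0.149), and LATS2 in 5, namely scrambled replicate 1 or 3 or any EHMT1 siRNA replicate (edgeR adjusted p = 0.0639 to 0.215); without scrambled replicate 2 both passed.

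AJUBA, which binds LATS kinases at tensed junctions, measured 33.7, 29.8 and 32.1 CPM with scrambled and 34.5, 36.3 and 36.9 CPM with EHMT1 siRNA. Every EHMT1 siRNA library lay above every scrambled library, by less than 1 CPM between the nearest. The log2 fold change of 0.17 (95% interval 0.03 to 0.31; edgeR adjusted p = 0.114) did not pass the test, nor did it with any 1 library left out.

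The signs of the 10 changes were the same with other size factors, other filters, DESeq2, limma-voom and the second strand column. The first strand column held few reads of these genes, 135 for ANKRD1 to 4768 for WWTR1 over the 6 libraries, against 3375 to 87570 for the same genes in the second. In it, 5 of the 10 had the opposite sign, YAP1, WWTR1, TEAD1, TEAD4 and ANKRD1, and 0 of the 10 passed the edgeR test. The largest of these opposite values was that of YAP1, at -0.18 (edgeR adjusted p = 0.588).

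**Figure D3:**
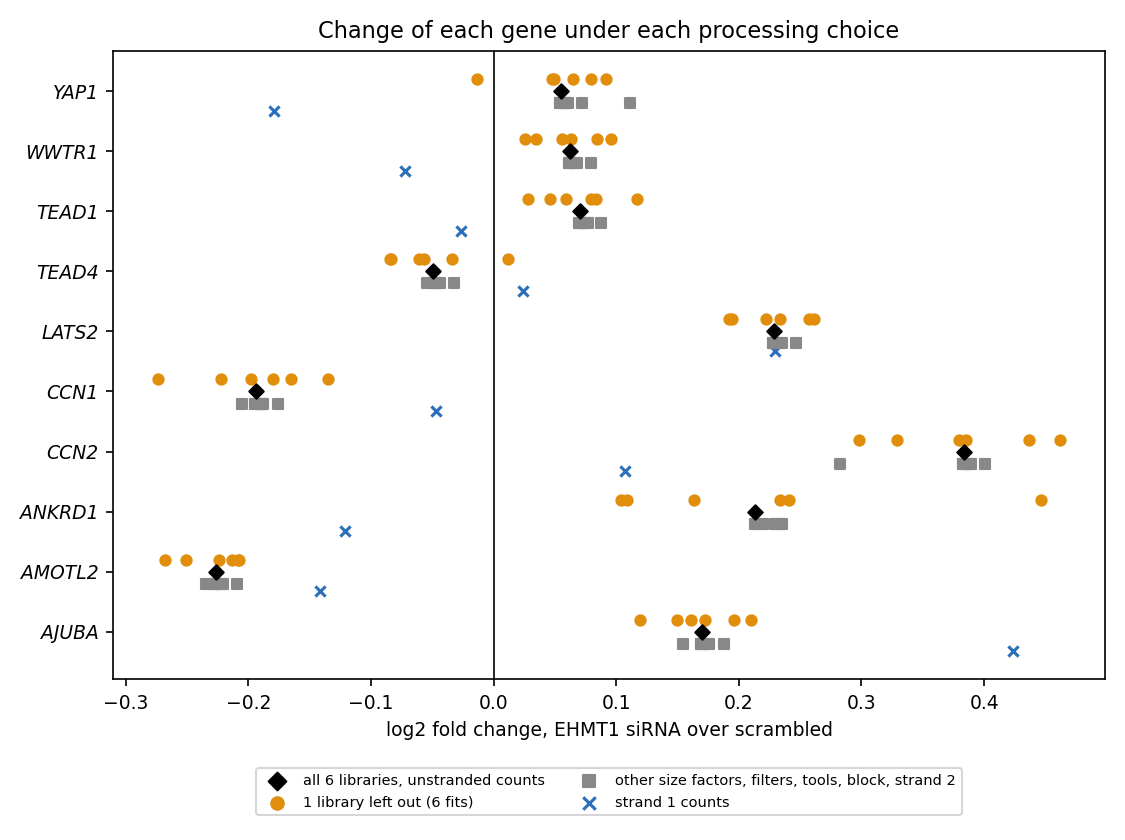
Log2 fold change of each gene (horizontal axis, EHMT1 siRNA over scrambled) with all libraries and unstranded counts (black), with 1 library left out (orange), under the other choices (grey squares) and in the first strand column (blue crosses). CCN2, LATS2 and AJUBA stay to the right of 0 and CCN1 and AMOTL2 to the left under every choice, while YAP1, WWTR1, TEAD1, TEAD4 and ANKRD1 lie on both sides.

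**Figure D4:**
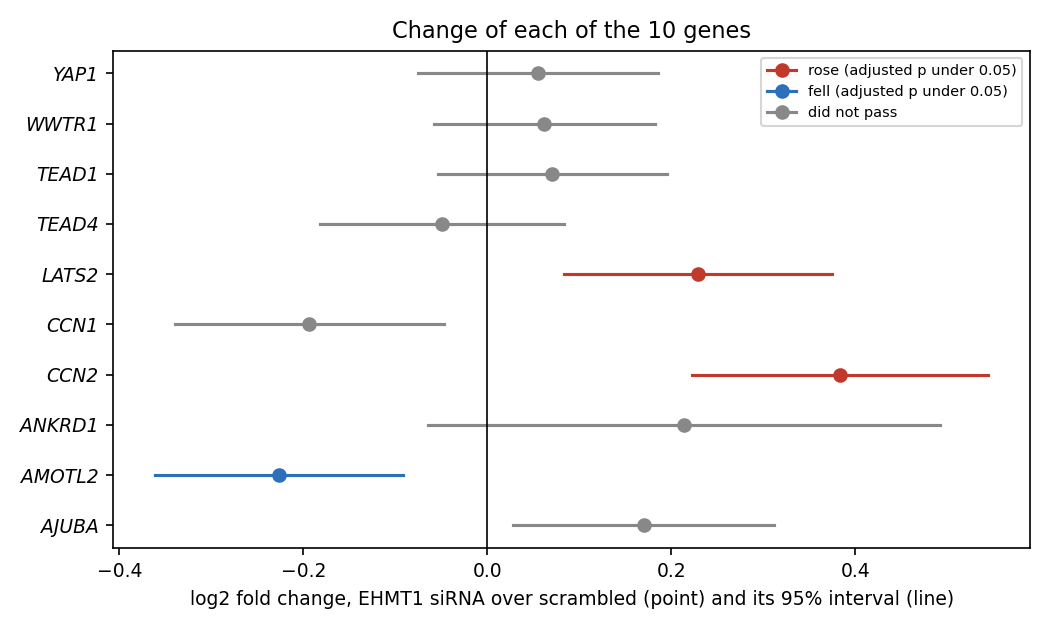
Log2 fold change of each gene (horizontal axis, EHMT1 siRNA over scrambled; point) with its 95% interval from the edgeR fit (line); red rose, blue fell and grey did not pass at an adjusted p under 0.05. The coactivators and TEAD factors lie near 0, and CCN2 at 0.38 and AMOTL2 at -0.23 mark the ends.

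By level per length with scrambled siRNA, CCN1 led the 10 genes at 45.7 ± 4.59 CPM per kb, followed by CCN2 at 41.0 ± 4.58, TEAD4 at 37.7 ± 2.96 and WWTR1 at 35.1 ± 1.63 (SD, n = 3 each). The ranges of these neighbours overlapped from one to the next. YAP1 and TEAD1 followed, each clear of its neighbours. AMOTL2 at 6.88 ± 0.325, ANKRD1 at 6.43 ± 1.65 and AJUBA at 5.33 ± 0.325 formed a second overlapping run, above LATS2 at 4.72 ± 0.231. CCN1 stood above 95.4% of the 18195 tested genes with a known length and LATS2 above 58.4%, so all 10 were above the median of 3.03 CPM per kb. With EHMT1 siRNA, CCN2 at 53.5 ± 4.01 stood above CCN1 at 40.0 ± 1.61 CPM per kb. The order depends on the length used: with the longest transcript, WWTR1 led and CCN1 was the third. AJUBA at 7.48 then stood above ANKRD1 at 6.43 CPM per kb.

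By Pearson correlation of log2 CPM over the 6 libraries, the protein-coding genes most like CCN1 were PISD, ZBTB40 and MRPL18 (r = 0.994, 0.992 and 0.991) and those most like CCN2 were FAM168B, MRPS33 and HEATR6 (r = 0.996, 0.995 and 0.994). These are the highest of 9492 genes over 6 points that share the group difference, and they serve as a description only. Of the 6, MRPS33 rose (log2 fold change 0.22, edgeR adjusted p = 0.0314) and the others did not pass the test.

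The upstream kinase cascade was described with a list of 27 other Hippo kinases and regulators, all of them tested: 3 rose, 3 fell and 21 did not pass. The share called was 22.2% beside 12.4% of all genes tested, and the median log2 fold change was 0.04. STK4, the kinase MST1 that activates LATS, rose from 131.4 to 149.1 mean CPM, or 0.18 on the log2 scale (edgeR adjusted p = 0.0366). MOB1B, the LATS coactivator, rose by 0.21 on the log2 scale and PTPN14, a phosphatase that binds YAP and is also listed as its target, by 0.27 (edgeR adjusted p = 0.0263 and 0.0119). NF2, the membrane-linked activator of LATS called merlin, fell by 0.21 (edgeR adjusted p = 0.0299). The KIBRA family gene WWC1 fell by 0.36 (edgeR adjusted p = 0.014). Its relative WWC3, a scaffold that promotes LATS activation, had the largest called change of the list: it fell from 23.3 ± 2.18 to 15.2 ± 0.678 CPM (log2 fold change -0.62, edgeR adjusted p = 0.000134). Of these calls, that of WWC3 was kept with any 1 library left out. The call of WWC1 was lost without EHMT1 siRNA replicate 3, that of PTPN14 without replicate 1 or 2, and those of MOB1B, NF2 and STK4 in each of the 3 fits without an EHMT1 siRNA library, NF2 also without scrambled replicate 1 and STK4 without scrambled replicate 3. Of the genes with the most reads, the kinase MAP4K4 was at -0.02, the atypical cadherin FAT1 at 0.06 and MOB1A at 0.01, none of them past the test. Of 10 subunits of STRIPAK, the phosphatase complex that holds MST kinases inactive, 0 passed the edgeR test (1 fell without scrambled replicate 2), with PPP2R1A at 0.08, STRN4 at -0.14 and SIKE1 at -0.09.

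Among the close relatives of the 10 genes, 8 of 11 had enough reads to test, 0 rose and 1 fell, or 12.5% called beside 12.4% of all genes tested. The 1 that fell was WTIP, an AJUBA family LIM protein, from 18.5 ± 1.88 to 14.6 ± 0.670 CPM (log2 fold change -0.34, edgeR adjusted p = 0.0157), a call lost without scrambled replicate 3 or EHMT1 siRNA replicate 1 or 2. AMOTL1 at -0.04, LATS1 at -0.04 and LIMD1 at 0.00 did not pass. AMOTL1, LATS1 and LIMD1 were read at 280.3, 46.9 and 29.6 CPM with scrambled siRNA. CCN3 stood at 1.14 ± 0.290 CPM, and CCN4, CCN5 and CCN6 at 0.183, 0.0412 and 0.127 CPM, too low to test. The other TEAD partners were the VGLL proteins, which compete with YAP for TEAD. VGLL2, which is known from skeletal muscle, was at 127.9 ± 10.3 and 118.2 ± 3.27 CPM (log2 fold change -0.11, edgeR adjusted p = 0.28) and VGLL4, a repressor of TEAD, at 45.6 ± 2.79 and 49.7 ± 1.71 CPM (0.12, edgeR adjusted p = 0.236). VGLL3 was at -0.08 (edgeR adjusted p = 0.581), and VGLL1 had 0 counts in all 6 libraries.

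Other YAP/TAZ targets moved both ways. Of the 17 other genes of a 22-gene pan-cancer target set, 2 rose, 2 fell and 13 did not pass, with a median log2 fold change of 0.01. The share called was 23.5% beside 12.4% of all genes tested. NT5E, the surface enzyme CD73, rose from 196.1 ± 18.5 to 278.9 ± 5.12 CPM (log2 fold change 0.51, edgeR adjusted p = 8.6e-05), and the other riser was PTPN14. IGFBP3, which binds insulin-like growth factors, fell from 20.5 ± 0.256 to 8.39 ± 0.147 CPM (-1.29, edgeR adjusted p = 4.17e-08), and DOCK5, an exchange factor for RAC, from 31.7 ± 0.438 to 25.5 ± 1.17 CPM (-0.31, edgeR adjusted p = 0.00497). The calls of NT5E, IGFBP3 and DOCK5 were kept with any 1 library left out. Of the genes with the most reads, MYOF was at 0.16 and CRIM1 at -0.18, and both missed the threshold (edgeR adjusted p = 0.0985 and 0.0507) although their groups did not overlap. ASAP1 was at -0.05.

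Of the 52 other genes tested from a conserved YAP signature, 5 rose, 9 fell and 38 did not pass, and the median was -0.01. The share called was 26.9% beside 12.4% of all genes. None of the list shares given here was tested. This list and the pan-cancer set have genes such as ASAP1 and CRIM1 in common, and all genes include many with few reads. The stress-responsive gene NDRG1 rose by 0.66 and THBS1, the matricellular protein thrombospondin, by 0.51 on the log2 scale (edgeR adjusted p = 2.08e-05 and 0.00387). EMP2, a tetraspan membrane protein, fell by 0.46 (edgeR adjusted p = 0.000902). Others that fell were the kinetochore gene CENPF at -0.39, the spindle gene HMMR at -0.40, the survivin gene BIRC5 at -0.31 and the topoisomerase gene TOP2A at -0.29 (edgeR adjusted p = 0.00025, 0.000484, 0.00204 and 0.00496). The calls of these 7 genes were kept with any 1 library left out. The actin bundler FSCN1 at 0.08, the actin crosslinker FLNA at 0.09 and FSTL1 at 0.07 had the most reads and did not pass.

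Genes of pathways that share targets with YAP and TAZ were counted in the same way. The shares called were 28.6% of AP-1 factors, 42.9% of TGF-beta/SMAD targets and 16.7% of MRTF/SRF targets, on lists of 7, 7 and 18 tested genes, beside 12.4% of all genes. AP-1 factors bind many enhancers together with TEAD: of 7 tested, 1 rose and 1 fell. JUND fell from 186.0 ± 16.9 to 115.4 ± 10.3 CPM (log2 fold change -0.69, edgeR adjusted p = 1.66e-05) and FOSL2 rose from 79.0 ± 3.50 to 100.2 ± 1.23 CPM (0.34, edgeR adjusted p = 0.000831), while JUN at 0.14, FOSL1 at 0.18 and JUNB at 0.20 did not pass (edgeR adjusted p = 0.145, 0.125 and 0.0888). Of 7 TGF-beta/SMAD targets, 2 rose and 1 fell, among them TGFBI at 0.39 and the SMAD repressor SKI at -0.33 (edgeR adjusted p = 0.000395 for TGFBI and 0.00138 for SKI). SKIL at 0.19, PMEPA1 at -0.20 and SMAD7 at 0.16 did not pass. The calls of JUND, FOSL2, TGFBI and SKI were kept with any 1 library left out. Of 18 MRTF/SRF targets tested, genes driven by actin dynamics, 2 rose and 1 fell: MYL9 at 0.29, TAGLN at 0.44 and FILIP1L at -0.42 (edgeR adjusted p = 0.0168, 0.0496 and 0.0186). Each of these 3 calls was lost in 4 of the 6 fits that left out 1 library, and that of TAGLN also with limma-voom or a filter of 1 CPM. VCL at -0.01 and MYH9 at -0.04, genes of adhesion and contraction with many reads, did not pass.

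**Figure D5:**
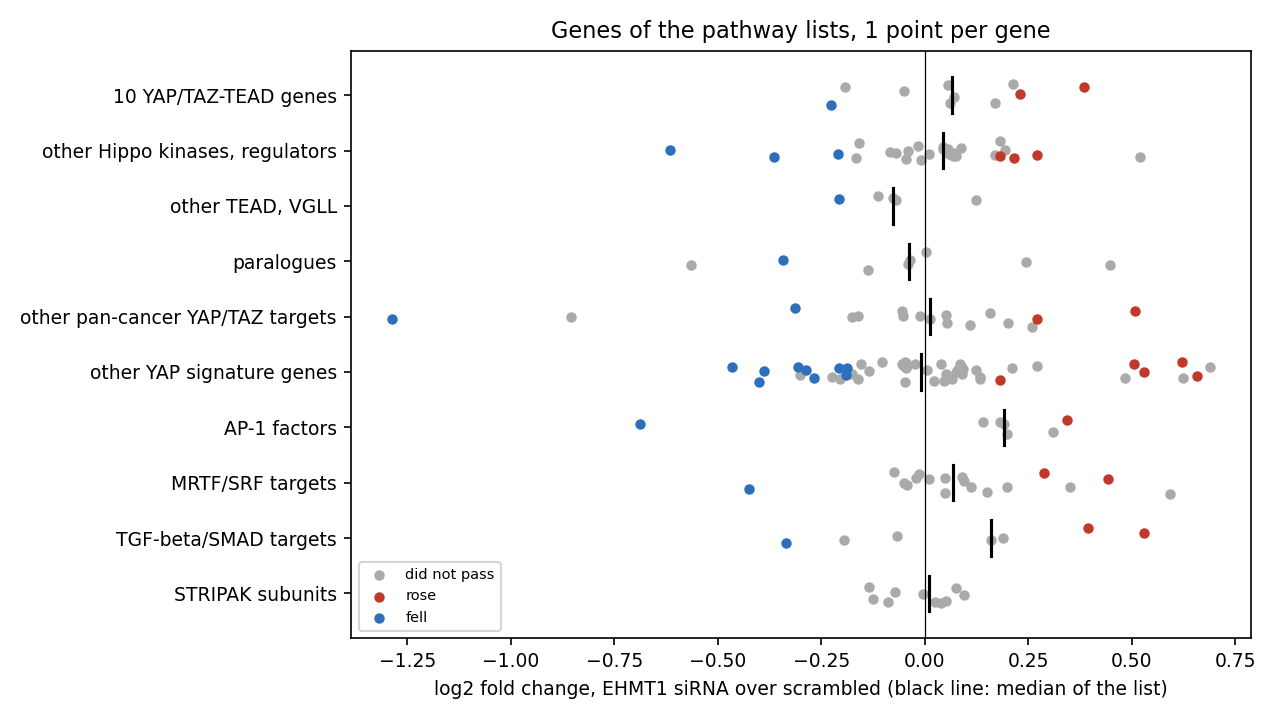
Log2 fold change (horizontal axis, EHMT1 siRNA over scrambled) of each tested gene in the lists, the 10 genes counted only in the top row; red rose, blue fell, grey did not pass, black lines are list medians, and vertical scatter within a row has no meaning. Called genes lie on both sides of 0 in most rows, and the STRIPAK row has none.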

How the data were processed

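Counts per gene in 6 libraries of RD cells were analysed, 3 with scrambled and 3 with EHMT1 siRNA, grouped by sample title. The deposited values were raw counts the authors made, without normalization, in the layout of STAR's gene table; the submitters' processing notes name STAR 2.5, HTSeq 0.6.1, DESeq2 and hg19, while the annotation used is not given in the sources used here. Names were found for 61399 of 61552 identifiers. Reads not assigned to a single gene (20.0% to 21.2%) were left out, among them reads that overlapped more than 1 gene (9.94% to 10.3%). The unstranded column gave the main results, although the second strand column held 87.1% to 89.0% of strand counts.

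In R 4.3.3 with edgeR 4.0.16, counts went through filterByExpr (minimum count 10), TMM scaling, a robust quasi-likelihood fit on group and Benjamini-Hochberg adjustment over all genes tested (threshold 0.05). SEs are the log2 change over the square root of F. On simulated data of 18646 genes, edgeR recovered 30% of 1.25-fold, 76% of 1.5-fold and 86% of 2-fold changes. Far fewer genes were changed there than passed in these data, and all genes were given the same relative spread. Each percentage rests on few genes and does not measure what the test recovers in these libraries. Per-length levels used exon lengths from GENCODE. Nothing in the labels says whether replicates came from separate cultures; p-values here reflect only the variation among these libraries, which may be technical. The members and lists were chosen with earlier results of these data known. Named genes were the 10 members, EHMT1, EHMT2 and SOX8, and from each list up to 8 called genes with the smallest p and the 3 most abundant others; 1 gene so chosen is counted in its lists but not reported here by name. Alternatives were other size factors, filters, strand columns, a replicate block, DESeq2 1.42.0, limma-voom (limma 3.58.1) and leaving out each library.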

Additional observations from a re-analysis of the deposited data

How the results depend on the processing

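The results were repeated under the alternatives named above. With 1 library left out, the log2 fold change ran from -0.014 to 0.091 for YAP1, -0.085 to 0.012 for TEAD4, 0.19 to 0.26 for LATS2, -0.27 to -0.14 for CCN1, 0.10 to 0.45 for ANKRD1 and -0.27 to -0.21 for AMOTL2. YAP1 and TEAD4 changed sign without scrambled replicate 2, at -0.014 and 0.012. The call of EHMT1 was the same in each of these fits.

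In the same fits 452 to 1625 genes rose and 484 to 1923 fell. Both minima came from dropping EHMT1 siRNA replicate 2, both maxima from dropping scrambled replicate 2. Hippo regulators gave 0 to 6 risen and 1 to 4 fallen, other TEAD and VGLL genes 0 to 2 fallen, STRIPAK subunits 0 to 1 fallen, relatives of the 10 genes 0 to 1 fallen, other pan-cancer targets 1 to 4 risen, other YAP signature genes 3 to 7 risen and 5 to 13 fallen, AP-1 factors 1 to 3 risen, and MRTF/SRF targets 0 to 4 risen and 0 to 1 fallen.

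In the first strand column, 90 genes rose and 87 fell. Log2 fold changes there were -0.18 for YAP1, -0.072 for WWTR1, -0.027 for TEAD1, 0.024 for TEAD4, -0.12 for ANKRD1, 0.23 for LATS2, 0.11 for CCN2 and -0.14 for AMOTL2, and none of these 8 passed the edgeR test. Of the lists, 1 other pan-cancer target rose and 1 fell, 2 other YAP signature genes rose and 1 fell, and 0 Hippo regulators, TEAD or VGLL genes, relatives or MRTF/SRF targets passed; 0 AP-1 factors rose and 0 TGF-beta/SMAD targets fell. In the second strand column 2 AP-1 factors rose.

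Whether same-numbered libraries were paired is not stated, and the values do not decide it. Deviations of same-numbered libraries from their group means correlated at 0.056, 0.015 and 0.025, against -0.044 to 0.019 for different numbers. Each EHMT1 siRNA library correlated best with its own number, while scrambled replicate 2 correlated best with another number. With a replicate block 1474 genes rose and 1632 fell, CCN1 passed at -0.19 (edgeR adjusted p = 0.0343), and 5 Hippo regulators, 4 other pan-cancer targets and 3 AP-1 factors rose. Without a filter CCN1 passed at -0.19 and 5 Hippo regulators rose. TEAD2 was no longer called with upper-quartile factors or limma-voom (0 fallen TEAD or VGLL genes), and 1 MRTF/SRF target rose with limma-voom. At an adjusted p under 0.01, 492 genes rose and 525 fell; of the lists, 0 Hippo regulators rose and 1 fell, 1 other pan-cancer target rose, 5 other YAP signature genes fell, and 0 TEAD or VGLL genes, relatives or MRTF/SRF targets passed. The causes were not tested. Among the 10 genes ANKRD1 had the fewest reads, 435 to 771 counts per library, and the widest 95% interval.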
